A study of Populus ussuriensis with 9 samples.

Results

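OE14 is a transgenic line of the poplar Populus ussuriensis that overexpresses the gene LbDREB6 at a moderate level, per the labels, and it is compared here with wild-type (WT) plants of the same species. The comparison used 6 of the 9 RNA-seq libraries of the series, 3 from OE14 and 3 from WT, chosen by the genotype that the labels give. The other 3 libraries came from OE18, a line labelled as overexpressing LbDREB6 at a high level, and entered the fit and are set beside OE14 where stated. RNA came from fully expanded leaves of greenhouse plants, 6 months of age and left without water. The labels give the length of this drought as 1 week in the treatment protocol and as 2 weeks in the sample descriptions, and do not settle which holds. All genotypes were under drought, so every difference below is between genotypes in dry plants, and whether it was present before the drought was not tested. The labels name neither the promoter of the transgene nor the origin of the line, and OE14 is 1 line, so its level of overexpression and its identity as a line cannot be told apart. They call the samples biological replicates without naming the plants, so p-values measure the spread between these libraries. The OE14 columns carry the sample titles, and the WT columns, headed with another letter, were assigned to WT by elimination.

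DREB proteins (dehydration-responsive element binding) are plant transcription factors of the AP2/ERF superfamily. They bind a short element in the promoters of genes that respond to drought and cold, and overexpressing them is a long-used way to alter stress tolerance in plants, often with effects on growth. In leaves of land plants, a small number of genes, many of them for photosynthesis, typically supplies a large part of the messenger RNA, so a change in a few abundant transcripts can move a large part of the total.

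The values are FPKM, which scale the reads of a locus to its length and to the library, for 29764 locus IDs. The IDs begin with Potri, the prefix of locus names of the poplar Populus trichocarpa, and no gene names or functions stand beside them in the table. No annotation was used here, so roles of the genes are not stated, the leaf tissue and the level of LbDREB6 could not be checked by marker genes, and 2 loci that rose and 2 that fell are named. Tests were run on the 22848 loci that reached 1 FPKM in 3 or more of the 9 libraries, and 6916 were set aside. At the edge of this filter, the third-highest value was 1.0003 FPKM in the locus just inside and 0.9996 FPKM in the one just outside. OE18 alone carried 1019 loci past the filter. As these lay under 1 FPKM in every WT and OE14 library, none could reach 2-fold on the log2(FPKM + 1) scale used here (0 of 1019). That count therefore says nothing about the filter. The libraries held 10988010 to 16221919 reads, recovered from the steps of the FPKM values.

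Most differences between OE14 and WT were small. The large ones differed by direction: rises were numerous, while falls reached the most abundant transcripts of the leaf and were deeper there. Differences were tested as log2(FPKM + 1) with limma, a linear model with a shared estimate of the spread, and called at an adjusted p under 0.05 (Benjamini-Hochberg over all tested loci). Of the tested loci, 52.8% were called, 31.9% higher and 20.9% lower in OE14. A rise of 2-fold or more was called for 812 loci, 3.55% of those tested, and a fall of 2-fold or more for 441, or 1.93%. On the log2(FPKM + 1) scale, the balance turned as the size of the change grew. With a threshold of 3-fold there were 158 rises and 171 falls, with one of 8-fold 3 rises and 31 falls, and with one of 16-fold 0 rises and 8 falls. The loci with a mean of 5 FPKM or more over the WT and OE14 libraries gave 109 rises and 137 falls at 3-fold. At 8-fold they gave 3 rises and 31 falls. The 1 added to FPKM still lowers the fold there where the lower group is near 1 FPKM. Counts at 3-fold, 8-fold and 16-fold were taken on this scale only. The turn at 4-fold over all tested loci, with 45 rises (0.197%) and 107 falls (0.468%), depends on how low values are treated, since limma's voom method on the recovered reads gave 384 and 224.

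**Figure D1:**
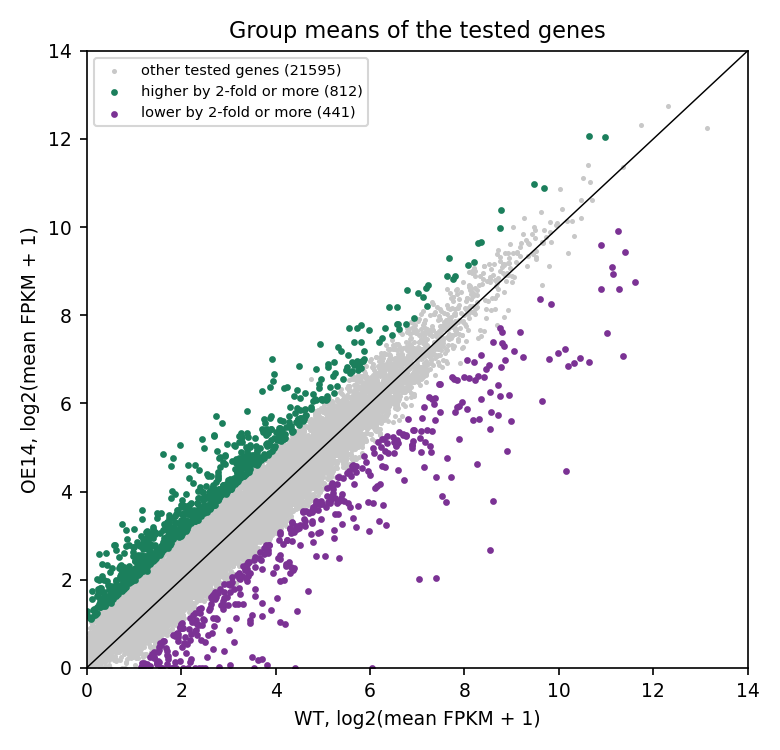
Mean level of each tested locus in OE14 (vertical axis) against WT (horizontal axis), both as log2(mean FPKM + 1), with 1 point per locus and the line of equality. The 812 loci called higher by 2-fold or more lie above the line mostly at low and middle levels, and the 441 called lower reach far below it at the right, where WT levels are highest.

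Each OE14 library showed these changes at about the same scale. Set singly against the mean of the WT libraries on the log2(FPKM + 1) scale, the OE14 libraries had 850, 846 and 847 loci higher by 2-fold or more, and 477, 519 and 466 lower. A WT library set in the same way against the mean of the other WT libraries had 9 to 11 such loci higher and 10 to 11 lower. The second OE14 library differed from its group almost only in 1 direction, with 1 locus higher and 28 lower by 2-fold or more than the mean of the other OE14 libraries. The other OE14 libraries had 19 and 10 higher, and 15 and 7 lower. Of the 812 loci that rose by 2-fold or more, 811 had every OE14 library above every WT library, against 36.1% of all tested loci, and of the 441 that fell, 439 had every OE14 library below, against 24.3%. In either direction the libraries did not overlap at 60.4% of the tested loci, and no more is read from these counts, since the loci were chosen by the same contrast. A difference of at least 2-fold in plain FPKM, without the pseudocount, between every OE14 and every WT library, with at least 1 FPKM on the higher side, was met by 777 loci higher in OE14 and by 424 lower. These include 635 of the 812 and 370 of the 441. A change of 2-fold is not a natural boundary, since 363 called loci had a log2 change between 0.9 and 1.0 in size and 290 one between 1.0 and 1.1.

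The share of loci that fell was highest among abundant transcripts, though most falls lay at lower levels. Among the 741 loci with a mean of 100 FPKM or more over the WT and OE14 libraries, 77 fell by 2-fold or more and 38 rose. On the log2(FPKM + 1) scale, the share that fell in this class was 10.4%, against 1.93% of all tested loci. The share that rose was 5.13%, against 3.55%. The shares over all tested loci depend on the treatment of low values, since voom gave 1885 rises and 834 falls among the 22848. By voom the share that fell was still higher in this class than over all tested loci, and the share that rose was not. In each class under 50 FPKM, rises outnumbered falls, except that quantile normalization turned the classes under 1 FPKM (20 rises, 26 falls) and of 1 to 2 FPKM (58 and 63). Between 5 and 10 FPKM, for example, 159 loci rose and 61 fell, and between 10 and 20 FPKM 139 rose and 55 fell. The class of 50 to 100 FPKM lay between these, with 38 rises and 44 falls. At 4-fold or more the most abundant class held 37 falls and 1 rise. In that class the counts hardly moved with the treatment of low values, with 39 rises and 79 falls of 2-fold or more by voom, 38 and 76 after quantile normalization, and 32 and 79 under median-of-ratios scaling. Counting calls of any size in the most abundant class, 361 loci were higher (48.7%) and 245 lower (33.1%). Over all tested loci the shares were 31.9% and 20.9%, so more higher than lower calls is not particular to this class. Whether that split holds under other scalings was not tested.

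**Figure D2:**
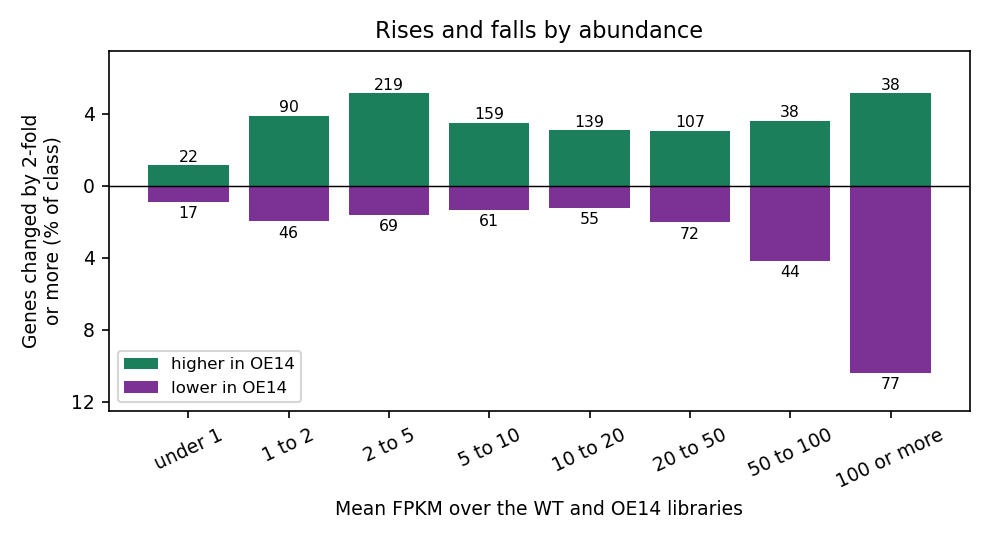
Share of loci called higher (upward bars) or lower (downward bars) in OE14 by 2-fold or more, in percent of the tested loci of each abundance class, with the number of loci at each bar. Falls exceed rises in the classes of 50 to 100 FPKM and of 100 FPKM or more, and not in the classes below on the FPKM as deposited.

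At the top of the scale, 35 tested loci averaged at least 1000 FPKM in WT. Of these, 17 fell by 2-fold or more in OE14 and 2 rose by that much. Over all tested loci, 1.93% fell and 3.55% rose by 2-fold or more. The choice by WT level favours falls, and a choice by OE14 level favours rises. Of the 27 loci with at least 1000 FPKM in OE14, 6 rose and 0 fell by that much. Those 17 loci are dispersed over chromosomes 1, 3, 4, 6, 8, 10, 12, 13, 14, 17 and 19, by the chromosome number in their IDs. Together they held 6.42%, 6.18% and 5.94% of the summed FPKM of the WT libraries and 1.08%, 1.1% and 1.1% in the OE14 libraries. The median of the 17 was 1973, 1904 and 1860 FPKM in the WT libraries and 177, 203 and 195 FPKM in OE14. At each of the 17 loci all OE14 libraries lay below all WT libraries, against 24.3% of all tested loci. No more is read from this, since the 17 were chosen as falls in the same contrast. A locus on chromosome 3 had 2752, 2611 and 2490 FPKM in WT and 135, 134 and 136 FPKM in OE14, a log2 fold change of -4.27. Another, on chromosome 17, had 2115, 2031 and 2055 FPKM in WT and 177, 203 and 195 FPKM in OE14, a log2 fold change of -3.43. The smallest falls of the set were of 1.29 and 1.35 on the log2 scale, at loci of chromosomes 6 and 10. In the OE18 libraries the same 17 loci held 0.426%, 0.412% and 0.410% of the summed FPKM. Both lines are set against the same WT libraries here, by whose levels the 17 were chosen.

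Over the whole set of falls the shift was larger. The 441 loci that fell by 2-fold or more held 12.6%, 12.2% and 12% of the summed FPKM in the WT libraries and 2.72%, 2.77% and 2.77% in OE14. Counted in recovered reads, without scaling by length, they held 11.2%, 10.9% and 10.7% of WT reads and 2.51%, 2.57% and 2.55% of OE14 reads. The 812 loci that rose held 2.99%, 2.93% and 3.01% of the summed FPKM in WT and 7.59%, 7.87% and 7.71% in OE14. The falls were therefore fewer in number and larger in transcript: the mean differences summed to 49869 FPKM over the 441 falls and to 25085 FPKM over the 812 rises. A few loci carried much of both, with 38.2% of the fall in the 10 loci with the largest differences and 41.6% of the rise in the 10 largest there. The loci of each set were chosen for this contrast, so the shares describe its size and are no separate evidence of it. Since FPKM are relative to the library, a lower share of some loci is by construction a higher share of the others. Under median-of-ratios scaling, 51.5% of all calls were higher instead of 60.4%, and under quantile normalization 51.2%, with the median log2 fold change of all tested loci moving from 0.07 to 0.01 and 0.00.

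**Figure D3:**
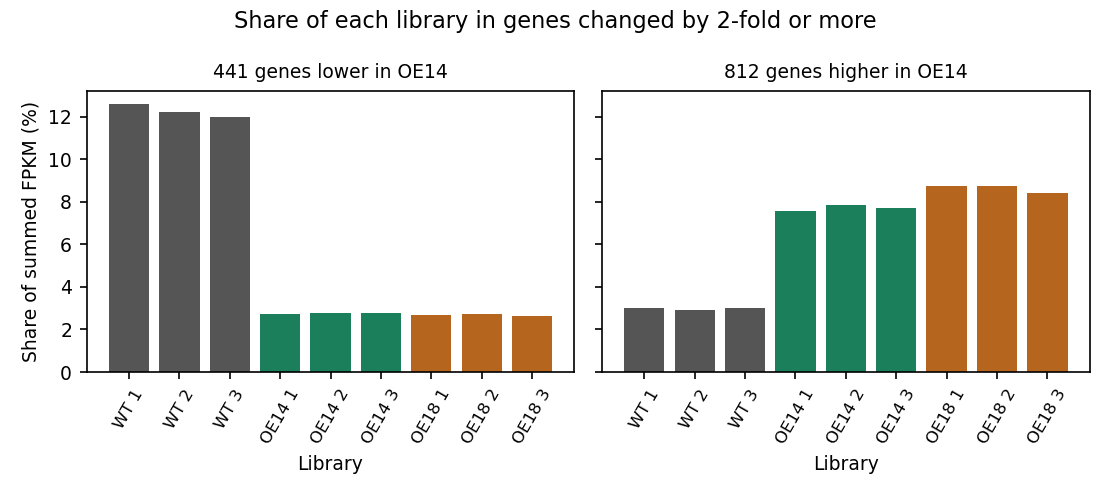
Share of the summed FPKM of each library, in percent, held by the 441 loci that fell (left) and by the 812 that rose (right) by 2-fold or more in OE14, with 1 bar per library. The left set drops from 12% or more in the WT libraries to under 2.78% in OE14, and the right set goes from about 3% to over 7.5%.

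The typical fall lay at a higher level than the typical rise, on the higher side of the change and on the lower side. WT levels alone are not compared, since the choice by this contrast favours high ones among falls and low ones among rises. Among the 441 falls the median level was 20.9 FPKM in WT and 6.49 FPKM in OE14, and among the 812 rises it was 3.45 FPKM in WT and 10.5 FPKM in OE14. In the higher of their groups, 103 of the falls and 65 of the rises reached 100 FPKM. The levels of the same sets in OE18 had medians of 9.63 FPKM for the falls and 12.8 FPKM for the rises. Against WT the falls had a median log2 fold change of -1.41 in OE14 and -1.23 in OE18, and the rises one of 1.22 in OE14 and 1.30 in OE18. These comparisons share the WT libraries, so the closeness of the medians is not read as a result.

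At the top of the OE14 scale, 27 tested loci averaged at least 1000 FPKM in that line, and 6 of them had risen by 2-fold or more. They were chosen by their OE14 level, which favours values above WT and OE18, so what follows is a description. The 6 lie on chromosomes 4, 5, 9 and 10, and together they went from 1.16%, 1.1% and 1.18% of the summed FPKM in WT to 2.73%, 2.89% and 2.78% in OE14. OE18 had 1.01%, 1.01% and 0.952%, slightly under the WT libraries. A locus of this set on chromosome 5 had 743, 667 and 730 FPKM in WT, 2048, 2023 and 1971 FPKM in OE14 and 127, 113 and 134 FPKM in OE18. Its levels were thus highest in OE14 and lowest in OE18, and the libraries of the genotypes were apart. Another of the 6, on chromosome 9, had a mean of 428 FPKM in WT, 1006 FPKM in OE14 and 1571 FPKM in OE18.

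The 4 named loci give these patterns library by library. Chosen for their change in OE14, they are, in each direction, the called locus with the largest difference in mean FPKM and the called locus with the largest log2 fold change among those above 0 in all 6 libraries. Where OE18 is compared with OE14 directly, 77.7% of all tested loci were called in that comparison, and the choice of these loci for an extreme OE14 level favours such a difference.

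Potri.004G015300.v3.0 had the largest rise in FPKM, and it was already an abundant transcript in WT. It had 1655, 1578 and 1551 FPKM in the WT libraries and 4123, 4496 and 4285 FPKM in the OE14 libraries. All OE14 libraries lay far above all WT libraries, and the mean rose 2.70-fold, from 1595 ± 54.1 to 4301 ± 187 FPKM (SD, n = 3 each). On the log2 scale the change was 1.43 (SE 0.05, limma adjusted p = 1.8e-11). This 1 locus went from 0.304% to 0.817% of the summed FPKM. In OE18 it had 1777, 1784 and 1759 FPKM, just above the WT libraries, and the direct comparison of OE18 with OE14 gave a log2 difference of -1.28 (SE 0.05, limma adjusted p = 9.7e-12).

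Potri.006G234900.v3.0 rose most on the log2(FPKM + 1) scale, from a low level. The WT libraries had 1.97, 1.80 and 2.42 FPKM, which rest on 24, 19 and 25 reads, and the OE14 libraries had 24.4, 31.7 and 27.1 FPKM. The ratio of the means was 13.4, and the log2 fold change, which the pseudocount of 1 pulls down at such levels, was 3.23 (SE 0.15, limma adjusted p = 6.5e-10). OE18 had 1.47, 2.17 and 1.1 FPKM, overlapping WT and far under OE14 (log2 difference -3.49, SE 0.15, limma adjusted p = 4.6e-11).

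Potri.008G062300.v3.0 had the largest fall in FPKM. Its levels were 3453, 3120 and 2835 FPKM in WT and 428, 428 and 434 FPKM in OE14. Among the OE14 libraries it hardly varied (430 ± 3.4 FPKM, SD, n = 3), and in WT it varied more (3136 ± 309 FPKM, SD, n = 3). WT had 7.29 times the OE14 mean, or -2.86 on the log2 scale (SE 0.06, limma adjusted p = 2.5e-13). The locus accounted for 0.598% of the summed FPKM in WT and for 0.0817% in OE14. OE18 lay lower again, at 133, 130 and 122 FPKM, and differed from OE14 by -1.74 on the log2 scale (SE 0.06, limma adjusted p = 6.9e-12).

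Potri.009G148000.v3.0 had the largest fall on the log2(FPKM + 1) scale among loci with reads in all 6 libraries. It had 386, 367 and 355 FPKM in WT, from 4433, 3650 and 3442 reads, and 5.98, 4.82 and 5.35 FPKM in OE14, from 60, 67 and 68 reads. The WT mean was 68.6 times that of OE14, and the change was -5.86 on the log2 scale (SE 0.09, limma adjusted p = 1.4e-14). OE18 had 18.7, 19.0 and 14.4 FPKM, above every OE14 library, and the direct comparison put OE18 higher than OE14 by 1.52 (SE 0.09, limma adjusted p = 2.2e-09). OE14, the line labelled moderate, was therefore the lowest of the genotypes at this locus, whereas at the previous one OE18 was the lowest.

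**Figure D4:**
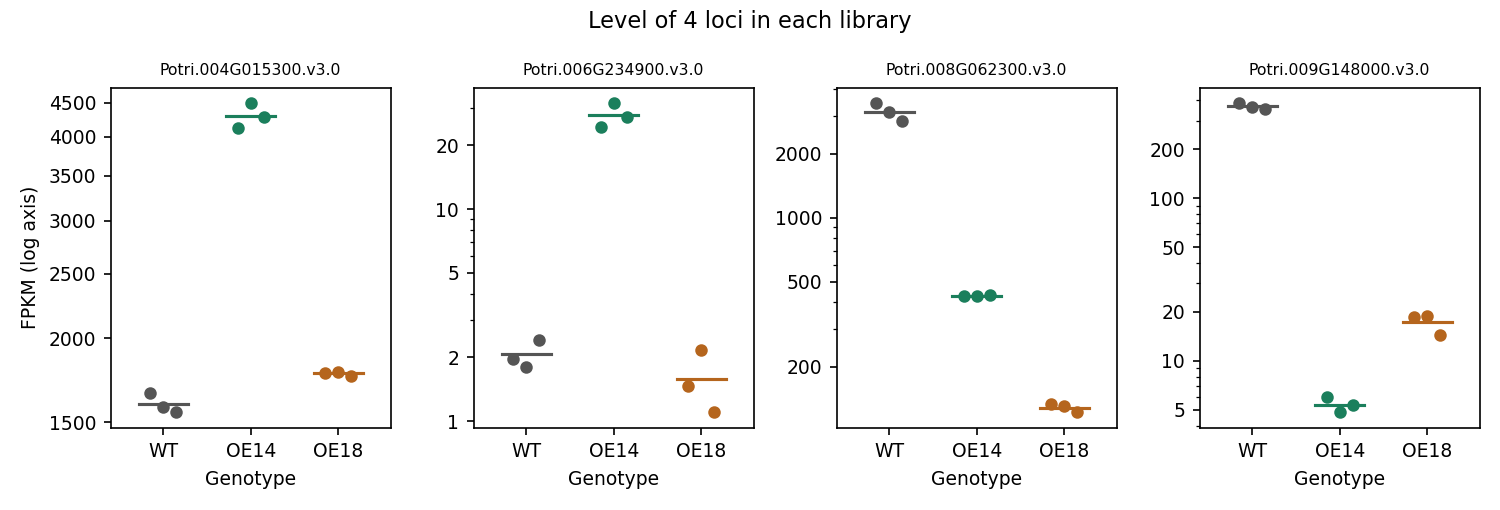
FPKM of the 4 named loci in every library (log axis, a panel each with its own range), by genotype, with a point per library and a line at the group mean. OE14 stands above WT and OE18 in the panels of both rising loci, lies between them at Potri.008G062300.v3.0 and is the lowest at Potri.009G148000.v3.0.

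A few loci lost all reads, and fewer gained reads where WT had none. Of the 29764 loci, 16 had no read in the OE14 libraries and averaged at least 1 FPKM in WT, and 3 showed the reverse. The 16 loci had 24 to 1875 reads over the WT libraries, and 3 of them averaged at least 5 FPKM there. The filter was passed by 13 of them. By their IDs, 4 of the 16 lie on chromosome 19, 3 on chromosome 7 and 2 on chromosome 5, 3 are unplaced, and 1 each lies on chromosomes 1, 2, 3 and 17. The locus of chromosome 1 had 12, 8.73 and 11.2 FPKM in WT from 377 reads, and neither OE14 nor OE18 had a read. Taking 3 reads over the group as the most that a count of 0 allows, the OE14 level was at least 147.9-fold lower than that of WT. Such a limit covers counting error only. Of the unplaced loci, 2 had no read in OE14 and many in the other genotypes. The stronger had 65.9, 65.8 and 63.0 FPKM in WT and 117, 99.5 and 116 FPKM in OE18, and OE14 was at least 736-fold lower than WT. The weaker had 21.2, 20.8 and 18.6 FPKM in WT and 49.5, 45.1 and 45.9 FPKM in OE18. The same limit puts OE14 at least 142.4-fold lower than WT there. Absence in OE14 alone was not confined to unplaced loci. A locus on chromosome 5 had 321 reads in WT and 211 in OE18, and a locus on chromosome 7 had 99 and 67. In all, 9 of the 16 had no read in OE18 either. The 3 loci without a read in WT were weak in OE14, with means of 1.06 to 1.45 FPKM and 13 to 59 reads over the group, so at this depth they are near the limit of detection, and they numbered 5 without the second or without the third WT library. Crossing of a fixed level, by contrast, went mostly upward: 447 loci were under 1 FPKM in every WT library and at 1 FPKM or more in every OE14 library, and 208 went the other way (392 and 233 under median-of-ratios scaling).

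Some of the changes lay side by side. Loci were ordered by the number in their IDs, and runs of 3 or more neighbouring tested loci that were all called in 1 direction by 2-fold or more were collected. There were 11 such runs with 36 loci, 8 of them of rises and 3 of falls, out of 1210 loci changed by 2-fold or more with a place on a chromosome. A run of neighbours may hold similar copies of a gene, and how the authors' counting divided reads between similar loci is not given in the sources used here, so values of single loci within a run are uncertain.

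The deepest run was on chromosome 4, where 3 neighbouring loci had log2 fold changes of -2.52, -5.37 and -5.70. The most abundant of them had 1188, 1180 and 1064 FPKM in WT and 19.3, 21.8 and 21.9 FPKM in OE14. Its neighbour had 178, 172 and 151 FPKM in WT and 2.57, 4.13 and 2.67 FPKM in OE14, and the third had 7.19, 6.03 and 6.18 FPKM in WT and 0.329, 0.277 and 0.303 FPKM in OE14. At each of the 3, the WT and OE14 libraries were far apart, which the choice of called changes favours. In OE18 the levels of the 3 loci were also low, with means of 32.5, 5.58 and 0.224 FPKM. A second falling run, on chromosome 8, held a pair of abundant loci at means of 325 and 272 FPKM in WT that went to 136 and 93.9 FPKM in OE14 and to 17.4 and 20.6 FPKM in OE18. The third lay on chromosome 5, with a median log2 fold change of -1.08.

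The longest run was one of 5 rising loci on chromosome 10, 4 of them abundant. Their means went from 20.8 to 58.4, from 311 to 797, from 223 to 473, from 823 to 1893 and from 93.8 to 292 FPKM between WT and OE14. Their log2 fold changes ran from 1.09 to 1.63 in OE14, in 1 direction by the way runs were chosen, a condition that OE18 did not have to meet. In OE18, 2 of them were at 3696 and 845 FPKM, well above OE14. The first and the fourth were at 7.0 and 679 FPKM, both under WT, and the third was at 344 FPKM, between WT and OE14. The steepest rise within a run was on chromosome 9, where a locus with 15.2, 14.7 and 12.6 FPKM in WT had 123, 128 and 132 FPKM in OE14 (log2 fold change 3.09). Its neighbours rose by 1.32 and 2.49 on the log2 scale. Chromosome 13 held 2 rising runs, of median log2 fold change 1.88 and 1.44, and chromosomes 1, 4, 15 and 18 held 1 rising run each, the first 3 with medians of 1.46, 1.40 and 1.37. The number of runs depends on the treatment of low values and was 43 with a pseudocount of 0.1 and 48 by voom.

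**Figure D5:**
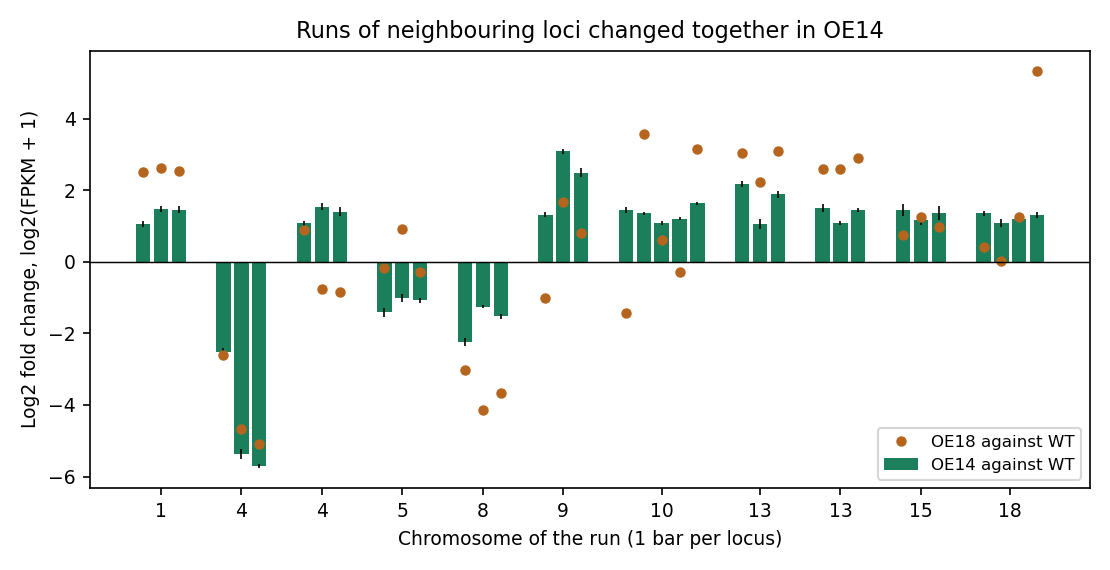
Log2 fold change against WT, on the log2(FPKM + 1) scale, of the 36 loci in the 11 runs of neighbouring loci, grouped by run and labelled with the chromosome. Bars with their standard errors show OE14 and points show OE18, compared with the same WT libraries. Within a run all bars point the same way, by the way runs were chosen, and the points take both signs in 4 of the 11 runs.

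Changes of 2-fold or more were found on every chromosome. Leaving out loci with no place on a chromosome, the share of tested loci that rose by 2-fold or more ran from 2.19% on chromosome 12 to 4.73% on chromosome 17, and the share that fell from 0.901% on chromosome 12 to 4.10% on chromosome 5. On chromosome 5 falls outnumbered rises, with 61 against 47. On each of the other chromosomes rises of 2-fold or more outnumbered falls, except on chromosome 19 after quantile normalization (14 rises, 17 falls). Chromosome 18 had the largest share of loci called higher at any size (39.4%, against 31.9% over all). Unplaced loci, those with a T in the ID, had 5.03% rises and 3.62% falls of 2-fold or more, on 497 tested loci.

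Large changes were also more frequent among short loci. In the fifth of tested loci with the shortest recovered lengths, up to 1189 bases, 6.08% rose and 3.50% fell by 2-fold or more. In the fifth with the longest, from 2763 bases, 1.64% rose and 1.20% fell. The shares of loci called at any size differed less, with 28.8% higher and 21.0% lower among the shortest and 28.6% and 23.1% among the longest. Short loci also had lower levels, with a median of 5.16 FPKM against 9.60 FPKM, and the part of this in the difference was not tested.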

How the data were processed

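The authors deposited 1 table of FPKM values with a column per library, and the replicates were not pooled. HISAT2 2.1.0 and Bowtie2 2.2.3 are listed without a role, per the submitters' processing notes. How reads were counted, on which genome build and annotation, and with what strand setting, is not given in the sources used here. Library totals, locus lengths and whole reads were recovered from the steps of the FPKM values (within 1e-05 reads for all 22848 tested loci). Depth per library was 10988010 to 16221919 reads, where 3 reads at 1 kilobase correspond to 0.273 to 0.185 FPKM. Replicates were compared by a chi-square of their reads, whose mean was 1.92 to 6.75 against 1 for counting noise. Each was counted as a sample, per the labels. Whether they come from separate plants cannot be told from the chi-square.

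Log2(FPKM + 1) was tested with limma 3.58.1 in R 4.3.3, two-sided, with a variance trend, in 1 fit over 9 libraries and 3 groups (6 residual degrees of freedom). P-values were adjusted by Benjamini-Hochberg over all tested loci, and called under 0.05. The code was tested on simulated data. For the fit these had 200 changed loci, far fewer than were called here, so that test says nothing about the number of calls. Locus IDs are paired with no names, so gene lists by description were not applied, and 4 loci were named by the rule in the report. The comparison, lists and rules were chosen with earlier results of these data known. Alternatives were other pseudocounts, filters and scalings, a fit of 6 libraries, leaving out each library, and limma voom on the recovered reads, the last chosen after seeing the data.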

Additional observations from a re-analysis of the deposited data

Results flagged for a closer look

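At all 4 named loci the change from WT differed between OE14 and OE18 by the direct test, in limma's fit of all libraries. The loci were chosen for extreme changes in OE14, and 77.7% of all tested loci were called between OE18 and OE14, so the count says little about these loci. The log2 difference of OE18 from OE14 was -1.28 for Potri.004G015300.v3.0, -3.49 for Potri.006G234900.v3.0, -1.74 for Potri.008G062300.v3.0 and 1.52 for Potri.009G148000.v3.0. The libraries of OE14 and OE18 did not overlap at any of these loci. Against WT, the OE18 change was 0.15 (limma adjusted p = 0.0071) and -0.26 (adjusted p = 0.11) at the first and second loci, and -4.60 and -4.34 at the others.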

How the results depend on the processing

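Direction and call of the 4 named loci held under every alternative run. Counts by size depended on low values: with a pseudocount of 0.1, there were 1788 rises and 774 falls at 2-fold and 243 rises and 191 falls at 4-fold. At a pseudocount of 0.5 there were 78 rises at 4-fold, and voom gave 1885, 834, 384 and 224 for the same sizes and directions. Runs of neighbouring loci numbered 43, 19 and 48 under these settings in turn, and 9 to 14 when 1 library was left out. Loci without a read in WT numbered 16 when the OE14 mean had to reach 0.5 FPKM and 0 when it had to reach 2 FPKM (2 to 5 when 1 library was left out), and those without a read in OE14 numbered 30 at 0.5 FPKM and 12 at 2 FPKM (15 to 20 when 1 library was left out). Leaving out 1 library gave 796 to 832 rises and 433 to 460 falls of 2-fold or more. Quantile normalization gave 614 rises and 505 falls of 2-fold or more, 54.9% higher instead of 64.8%. The cause of these shifts was not tested. The share of summed FPKM in falling loci, over all settings, was 12.2% to 14.4% in WT and 2.73% to 3.86% in OE14. No paired analysis was possible because the WT columns are not tied to numbered samples. The planned count test was not run, because the deposited values are FPKM, and voom on the recovered reads was added as an alternative. Depth limits statements on loci under about 1 FPKM.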
